A study of Mus musculus with 3 samples.

Results

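The genes described here are the mouse genes whose symbol is Gpr followed by a number, most of which encode G protein-coupled receptors. They were chosen by symbol alone: Ensembl identifiers were matched to mouse symbols, and every symbol of the form Gpr, a number and up to 1 letter and 1 digit was kept, apart from Gpr1. The rule found 73 genes among the 46073 rows of the table, and all 73 are listed as protein coding by RefSeq. RNA came from the medial prefrontal cortex (mPFC), a frontal area of the cortex, of untreated C57BL/6 mice aged 3 months. The labels do not state the sex of the mice or whether tissue of several mice was pooled. The series also holds MeDIP DNA, enriched for methylated cytosine, and input DNA from the same tissue and strain, and that DNA is not used here. There is no second condition in the labels, and the RNA table holds 1 value per gene, so values are given without an error, and ratios between genes have no replicate check.

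G protein-coupled receptors are proteins with a bundle of membrane-spanning helices that pass a signal from outside the cell to heterotrimeric G proteins, and so to cyclic AMP, calcium or ion channels. The name Gpr was given to receptors found by sequence before a ligand was known, and many are still orphans. Some have since been paired with lipids, protons, metal ions or peptides, and some proved to sit on the Golgi or the lysosome and not to be classical receptors. In the cortex, members are known from neurons, astrocytes, oligodendrocytes and microglia. These cell types are background knowledge of each gene and were not measured in this bulk RNA.

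Of the 73 Gpr-named genes 38 (52.1%) were detected, meaning that they were at 1 FPKM or more. FPKM is the number of sequenced fragments scaled to transcript length in kilobases and to 1000000 mapped fragments. The floor was passed by 31.5% of all rows and by 58.6% of protein-coding rows, so the share of Gpr-named genes lay between these, nearer to the protein-coding one. The median Gpr-named gene was at 1.37 FPKM, against 2.59 FPKM for protein-coding rows and 0.0414 FPKM for all rows. The 73 genes covered a wide range: 12 were at 10 FPKM or more, 7 at 5 to under 10 FPKM, 19 at 1 to under 5 FPKM, 16 at 0.1 to under 1 FPKM and 17 above 0 and under 0.1 FPKM, and 2 were listed at 0. No Gpr-named gene reached 100 FPKM, while the neuronal markers used to check the tissue had a median of 272 FPKM, from Gad2 at 21.2 to Snap25 at 1279 FPKM, with 8 of 8 detected. The 3 highest genes, Gpr37l1, Gpr162 and Gpr137, held 39.1% of the 378 FPKM summed over the 73. The genes nearest above the floor were Gpr21 at 1.30 and Gpr165 at 1.37 FPKM, and those just below were Gpr6 at 0.926, Gpr4 at 0.681 and Gpr25 at 0.553 FPKM.

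**Figure D1:**
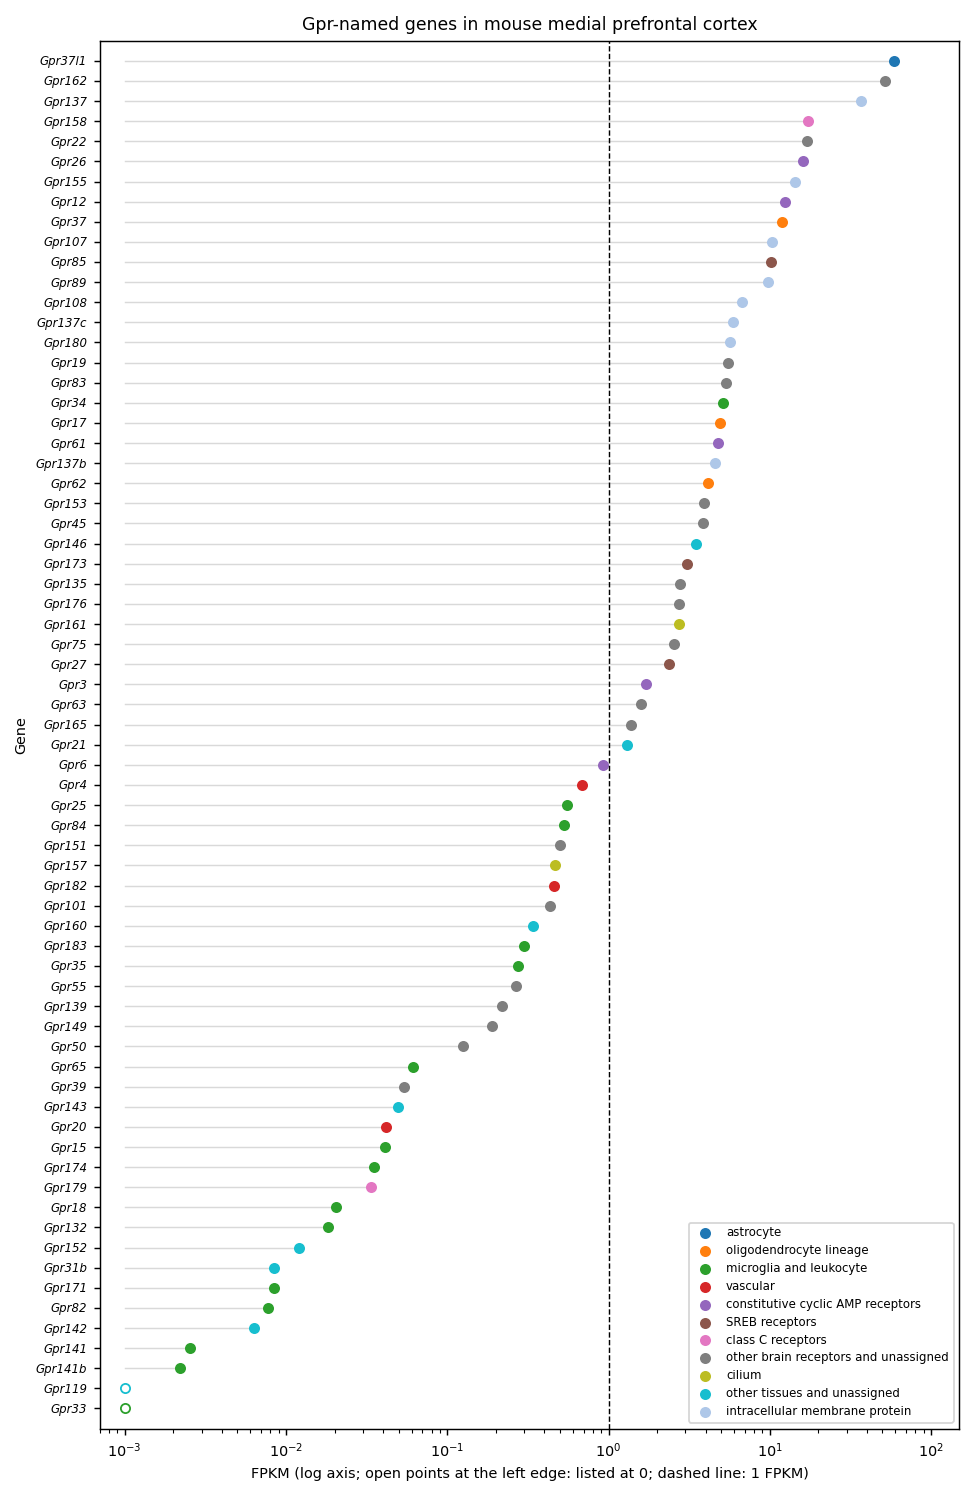
RNA level of 68 of the 73 Gpr-named genes, in FPKM on a log axis, ordered from high to low and coloured by the cell type or group each gene is known for. The points run from Gpr37l1 at 59.3 FPKM to Gpr119 and Gpr33, which are listed at 0 and drawn open at the left edge, and 35 points lie at or right of the dashed line at 1 FPKM.

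The Gpr-named receptors known from astrocytes and from the oligodendrocyte lineage were all detected, 4 of 4. Gpr37l1, a receptor of astrocytes (chromosome 1, 135160250 to 135167681, GRCm38), was the highest Gpr-named gene at 59.3 FPKM, above 94.8% of protein-coding rows. Of 8 astrocyte markers, 3 were higher than Gpr37l1, and the list had a median of 48.6 FPKM, from the transcription factor gene Sox9 at 4.66 to Aldoc at 613 FPKM. Its paralog Gpr37 (chromosome 6, 25668523 to 25689980), a receptor of myelinating oligodendrocytes, was at 11.9 FPKM, so that Gpr37l1 was 5.00-fold above Gpr37 in FPKM. Gpr37 stood below 6 of 8 oligodendrocyte markers, whose median was 82.4 FPKM, with Mbp highest at 912 and Myrf lowest at 8.11 FPKM. In bulk tissue, fewer cells of a type and less RNA per cell cannot be told apart. The proposed ligand of both receptors, prosaposin, is encoded by Psap, which was at 548 FPKM.

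The promoters of this paralog pair are shown because they differ in CpG dinucleotides, the sites that DNA methylation acts on, and the less CpG-dense one belongs to the more abundant RNA. Both are RefSeq sequences on build GRCm38.p6, from 250 bases before to 50 bases after the annotated start, printed 5′ to 3′ on the minus strand, with CpG in capitals. The promoter of Gpr37l1 (chr1:135167632-135167931) holds 7 CpG in 300 bases and that of Gpr37 (chr6:25689931-25690230) holds 21.
Gpr37l1: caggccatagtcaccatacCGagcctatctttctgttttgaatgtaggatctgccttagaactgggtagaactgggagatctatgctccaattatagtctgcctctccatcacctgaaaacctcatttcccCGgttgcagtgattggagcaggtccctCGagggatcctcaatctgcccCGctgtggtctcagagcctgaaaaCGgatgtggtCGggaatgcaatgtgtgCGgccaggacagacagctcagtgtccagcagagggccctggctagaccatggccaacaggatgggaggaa
Gpr37: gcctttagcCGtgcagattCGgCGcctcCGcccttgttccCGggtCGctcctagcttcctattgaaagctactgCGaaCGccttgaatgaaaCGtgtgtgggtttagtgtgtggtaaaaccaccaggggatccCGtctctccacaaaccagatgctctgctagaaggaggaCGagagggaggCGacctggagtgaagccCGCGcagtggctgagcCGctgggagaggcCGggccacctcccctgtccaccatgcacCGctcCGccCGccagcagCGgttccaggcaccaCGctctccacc
The ratio of observed to expected CpG, which corrects for the number of C and G, was 0.324 for Gpr37l1 and 0.716 for Gpr37.

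Gpr17, a receptor of committed oligodendrocyte precursors, was at 4.91 FPKM, and 4 of 8 precursor markers were higher. That list had a median of 3.74 FPKM, from Bmp4 at 1.31 to Olig1 at 20.9 FPKM. Gpr62, a constitutively active receptor of oligodendrocytes, was at 4.12 FPKM, below all 8 oligodendrocyte markers. Gpr62 overlaps the end of Pcbp4, which was at 213 FPKM, and reads of an overlap cannot be divided with certainty unless strand was used.

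Of the 15 Gpr-named genes grouped with microglia and leukocytes, only Gpr34 was detected. Gpr34, a receptor for lysophosphatidylserine on microglia (X chromosome, 13622650 to 13640859), was at 5.10 FPKM. All 8 microglia markers were higher than Gpr34, with a median of 13.8 FPKM, and Tmem119 was lowest at 7.66 FPKM. Its ligand is made by Abhd16a, at 44.2 FPKM, and degraded by Abhd12, at 179 FPKM. Gpr174, a lysophosphatidylserine receptor of lymphocytes, was at 0.0352 FPKM. The ratio of Gpr34 to Gpr174 was 145 in FPKM and 5.89 in FPKM + 1, so its size rests on the low value of Gpr174.

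The other 14 genes of this group were under the floor. Gpr84, a receptor for medium-chain fatty acids in myeloid cells, was at 0.532 FPKM, and Gpr25, a lymphocyte receptor, at 0.553 FPKM. Gpr183, which guides lymphocytes along oxysterols, was at 0.299 FPKM. Of the enzymes around that ligand, Ch25h, which makes its precursor, was at 0.219 FPKM, while Cyp7b1, which completes it, was at 4.53 FPKM and Hsd3b7, which degrades it, at 4.68 FPKM. Gpr35 was at 0.276 FPKM, the proton sensor Gpr65 at 0.0613 FPKM, the gut-homing receptor Gpr15 at 0.0412 FPKM, Gpr18 at 0.0205 FPKM and Gpr132 at 0.0183 FPKM. Gpr171, Gpr82, Gpr141 and Gpr141b were between 0.00841 and 0.00220 FPKM, and Gpr33 was listed at 0. None of 8 lymphocyte markers was detected, with Cd4 highest at 0.978 FPKM.

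No Gpr-named gene listed with vascular cells passed the floor, while all 8 endothelial and mural markers did. Gpr4, a proton sensor of endothelial cells, was at 0.681 FPKM, and Gpr182, an atypical chemokine receptor of endothelium, was at 0.456 FPKM. The marker list had a median of 3.30 FPKM, from Kcnj8 at 1.11 to Rgs5 at 13.0 FPKM, and all 8 markers were above both receptors. Gpr20 was at 0.0418 FPKM. Gpr65 and Gpr132, proton-sensing paralogs of Gpr4, were at 0.0613 and 0.0183 FPKM.

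Of 5 genes grouped here as receptors that raise cyclic AMP without a known need for ligand, 4 were detected. Gpr26, a brain receptor of this kind, was highest at 16.1 FPKM. Gpr61 was at 4.79 FPKM, within 1.16-fold of its paralog Gpr62, which is counted with the oligodendrocyte lineage and not in this group. In the family of Gpr3, Gpr6 and Gpr12, Gpr12 was at 12.5 FPKM, 7.31-fold above Gpr3 at 1.71 FPKM and 13.5-fold above Gpr6 at 0.926 FPKM. Gpr3 and Gpr12 are known from neurons, and Gpr6 is known from striatopallidal neurons. Gpr3 is also known from oocytes, where it keeps meiosis arrested. The alpha subunit of the stimulatory G protein, Gnas, was at 1061 FPKM, and its olfactory and striatal relative Gnal was at 22.2 FPKM. Gnas is an imprinted locus with overlapping transcripts, so its value is uncertain.

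The promoters of these 3 paralogs are shown because, in the sequences below, the order of CpG numbers is not that of RNA levels. They are RefSeq sequences on build GRCm38.p6, minus strand, 5′ to 3′, with CpG in capitals: Gpr12 at chr5:146585190-146585489, Gpr3 at chr4:133212487-133212786 and Gpr6 at chr10:41072241-41072540.
Gpr12: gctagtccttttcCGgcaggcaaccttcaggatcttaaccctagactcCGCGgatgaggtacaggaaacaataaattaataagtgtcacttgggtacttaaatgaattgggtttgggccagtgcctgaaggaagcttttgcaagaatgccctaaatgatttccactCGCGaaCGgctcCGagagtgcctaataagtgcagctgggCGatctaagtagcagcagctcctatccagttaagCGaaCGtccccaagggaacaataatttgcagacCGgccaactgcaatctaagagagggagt
Gpr3: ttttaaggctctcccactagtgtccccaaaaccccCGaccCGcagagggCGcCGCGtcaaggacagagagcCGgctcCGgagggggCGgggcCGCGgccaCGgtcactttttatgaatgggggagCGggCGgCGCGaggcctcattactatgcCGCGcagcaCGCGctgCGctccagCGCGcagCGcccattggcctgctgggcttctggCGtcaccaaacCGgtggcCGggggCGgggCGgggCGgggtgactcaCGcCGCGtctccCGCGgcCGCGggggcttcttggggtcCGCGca
Gpr6: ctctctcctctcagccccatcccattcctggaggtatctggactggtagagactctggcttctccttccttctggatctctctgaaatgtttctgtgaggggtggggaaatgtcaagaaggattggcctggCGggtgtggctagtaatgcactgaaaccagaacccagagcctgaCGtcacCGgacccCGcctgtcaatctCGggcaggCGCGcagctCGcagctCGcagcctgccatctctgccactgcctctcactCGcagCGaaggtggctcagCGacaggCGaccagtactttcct
Gpr12 has 2 RefSeq promoters, and the one with the higher observed to expected CpG ratio is shown. It holds 11 CpG, the promoter of Gpr3 holds 38 and that of Gpr6 holds 13. The GC box GGGCGG, searched on both strands, is in the Gpr3 sequence and in neither of the others shown. The Gpr12 promoter that is not shown does hold a GC box. The cyclic AMP response element TGACGTCA is in the Gpr6 sequence and in no other of the 67 promoters of Gpr-named genes, against 1.79% of all 32851 promoters. A match is a description of the letters, not a bound site.

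The SREB receptors, named as super-conserved receptors expressed in brain, were all detected. Gpr85 was at 10.1 FPKM, Gpr173 at 3.06 FPKM and Gpr27 at 2.36 FPKM. Gpr85 was 3.31-fold above Gpr173 and 4.29-fold above Gpr27, while Gpr173 and Gpr27 were within 1.30-fold.

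Among class C receptors, Gpr158 stood far above its paralog. Gpr158, which binds the RGS protein Rgs7 and glycine in cortical neurons (chromosome 2, 21367567 to 21830544), was at 17.2 FPKM, the fourth highest Gpr-named gene. Its partner Rgs7 was at 39.3 FPKM, and Gnb5, the obligate partner of Rgs7, was at 52.5 FPKM. Gpr179, the paralog of Gpr158 in retinal ON bipolar cells, was at 0.0334 FPKM. The ratio of Gpr158 to Gpr179 was 516 in FPKM and 17.6 in FPKM + 1.

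The largest group, 21 genes of other brain receptors and genes without an assigned cell type, had 14 detected members and a median of 2.55 FPKM. Gpr162 (chromosome 6, 124858444 to 124864195) led it at 52.0 FPKM, 13.3-fold above its paralog Gpr153 at 3.90 FPKM. Gpr22, a receptor of brain and heart, was at 16.9 FPKM. Gpr19 was at 5.53 FPKM and Gpr83, proposed to bind a peptide of proSAAS, at 5.38 FPKM. The proSAAS gene Pcsk1n was at 32.8 FPKM, while Gpr171, proposed to bind another of its peptides, was at 0.00841 FPKM. Gpr45 was at 3.84 FPKM, 2.41-fold above its paralog Gpr63 at 1.60 FPKM.

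Gpr176, a receptor of the suprachiasmatic clock that couples to Gz, was at 2.73 FPKM, and the Gz gene Gnaz was at 15.6 FPKM. Gpr135 was at 2.79 FPKM and Gpr75 at 2.55 FPKM. The zinc sensor Gpr39 was at 0.0539 FPKM, while Slc30a3, which loads zinc into synaptic vesicles, was at 43.5 FPKM. The lysophosphatidylinositol receptor Gpr55 was at 0.265 FPKM, Gpr149 at 0.188 FPKM and Gpr50, a relative of the melatonin receptors, at 0.125 FPKM. Gpr101, a receptor of the hypothalamus, was at 0.431 FPKM.

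Gpr6, Gpr151 and Gpr139, known from neighbouring brain regions, were under the floor. Of 8 markers of striatal neurons 6 were higher than Gpr6, the receptor of striatopallidal neurons. That marker list had a median of 2.37 FPKM, with Ppp1r1b highest at 59.6, Foxp1 at 15.3 and the striatal transcription factor Isl1 lowest at 0.0772 FPKM. Gpr52, another receptor of striatopallidal neurons, had no row matched by symbol and was not analysed here. The habenular receptors Gpr151 and Gpr139 were at 0.498 and 0.217 FPKM. Of 8 habenula markers 3 were detected, Tac2, Nwd2 and Lrrc55, while the habenular transcription factor Pou4f1 was at 0.00359 FPKM. Gpr142, the paralog of Gpr139 in pancreatic beta cells, was at 0.00633 FPKM, so that both were under the floor.

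Of the 2 receptors of the primary cilium, Gpr161 was detected and Gpr157 was not. Gpr161, which restrains Hedgehog signalling, was at 2.73 FPKM, and Tulp3, which brings it into the cilium, was at 5.43 FPKM. Gpr157, known from the cilium of radial glia, was at 0.469 FPKM.

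All 8 Gpr-named genes grouped as membrane proteins of the Golgi, endosome or lysosome, or set apart from classical receptors, were detected, with a median of 8.27 FPKM. Gpr137, a lysosomal protein, was at 36.6 FPKM, 6.23-fold above Gpr137c at 5.88 FPKM and 7.98-fold above Gpr137b at 4.59 FPKM. Gpr155, a lysosomal cholesterol sensor, was at 14.3 FPKM. The Golgi protein gene Gpr107 was at 10.3 FPKM, 1.53-fold above its paralog Gpr108 at 6.73 FPKM. The Golgi pH regulator Gpr89 was at 9.81 FPKM and Gpr180 at 5.66 FPKM. Without these 8 genes, 30 of the other 65 Gpr-named genes were detected.

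Of 9 genes known from other tissues or without an assigned cell type, 2 were detected. Gpr146, linked to plasma cholesterol through hepatocytes, was at 3.51 FPKM and Gpr21 at 1.30 FPKM. Gpr160 was at 0.338 FPKM and Gpr143, the ocular albinism gene in people, at 0.0494 FPKM. Gpr152, Gpr31b and Gpr142 were between 0.0120 and 0.00633 FPKM, and Gpr119, a receptor of enteroendocrine and beta cells, was listed at 0.

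Across families of receptors, the share of genes detected was 52.1% for Gpr-named genes, 51.9% for 27 adhesion receptors (Adgr symbols), 65.7% for 35 aminergic and muscarinic receptors and 27.5% for 80 neuropeptide receptors. Median levels were 1.37 FPKM for Gpr-named genes, 1.42 FPKM for adhesion receptors, 1.69 FPKM for aminergic and muscarinic receptors and 0.351 FPKM for neuropeptide receptors. The neuropeptide receptor list is broad and also takes in receptors of peptide hormones and vascular peptides, among them Gcgr, Gipr, Ednra and Ednrb. The difference between families was not tested, since genes are not replicates. Among detected genes the medians were 5.00 FPKM for Gpr-named genes, 14.1 FPKM for adhesion receptors, 3.16 FPKM for aminergic and muscarinic receptors and 5.73 FPKM for neuropeptide receptors.

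**Figure D2:**
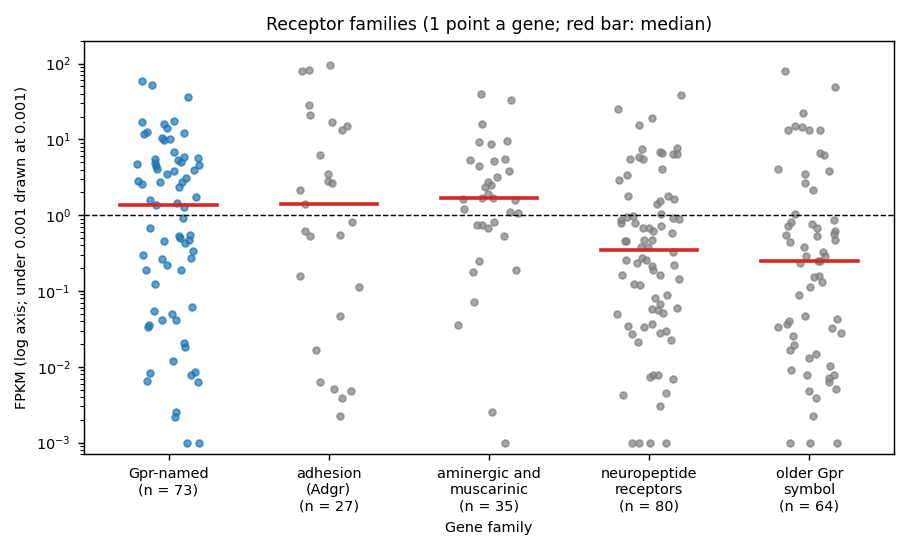
RNA level in FPKM, on a log axis, of each gene of 5 lists, 4 of them receptor families, with the number of genes below each name and the median as a red bar. The Gpr-named genes, at the left, have a median of 1.37 FPKM near that of the adhesion receptors at 1.42 FPKM, and the neuropeptide receptors and the genes with an older Gpr symbol have lower medians.

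By position, 23 of the 73 Gpr-named genes overlap another protein-coding gene in RefSeq, and 12 of these lie inside one. Their reads can be hard to divide where strand is not used. Of the 12, 7 were detected and 5 were not, although all 9 genes around them were detected. Gpr34 and Gpr82 both lie inside Cask, at 20.9 FPKM, with 5274 bases between them, yet Gpr34 was at 5.10 FPKM and Gpr82 at 0.00772 FPKM. Gpr183 and Gpr18 lie inside Ubac2, at 12.1 FPKM, and were at 0.299 and 0.0205 FPKM. Gpr171 lies inside Med12l, at 3.21 FPKM, and was at 0.00841 FPKM.

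Only 3 of the 12 were above the gene around them. Gpr22 at 16.9 FPKM was 2.87-fold above Cog5, Gpr108 was 3.30-fold above Trip10 and Gpr17 was 1.14-fold above Lims2. Gpr21, at 1.30 FPKM, lies inside Rabgap1, at 19.8 FPKM, and Gpr75, at 2.55 FPKM, inside Erlec1, at 22.0 FPKM. The part of the surrounding gene in these values was not tested. Some detected genes overlap a neighbour in part, among them Gpr137, at 36.6 FPKM, which overlaps Bad, at 19.8 FPKM. Gpr19, at 5.53 FPKM, overlaps Crebl2, at 9.67 FPKM, and Gpr161, at 2.73 FPKM, overlaps Tiprl, at 24.3 FPKM. Of the 50 Gpr-named genes that overlap no protein-coding gene, 23 (46.0%) were detected, and of the 23 that overlap one, 15 (65.2%) were detected.

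**Figure D3:**
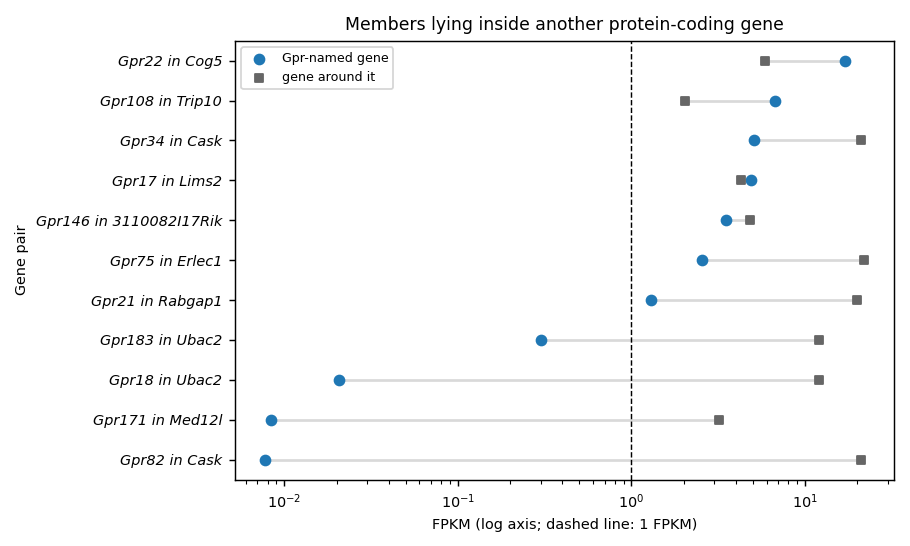
RNA level in FPKM, on a log axis, of 11 of the 12 Gpr-named genes that lie inside another protein-coding gene (blue points) and of the gene around each (grey squares). The Gpr-named genes run from Gpr22 at 16.9 FPKM to Gpr82 at 0.00772 FPKM, while the surrounding genes all lie between 2.04 and 22.0 FPKM.

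The Gpr-named genes lie on 19 chromosomes, with 9 on the X chromosome, of which 3 were detected: Gpr34, Gpr173 and Gpr165. All 5 genes on chromosome 2 and all 5 on chromosome 6 were detected, among them Gpr162, Gpr37 and Gpr85 on chromosome 6 and Gpr158, Gpr155 and Gpr107 on chromosome 2. On chromosomes 10, 15 and 16, which hold 2 Gpr-named genes each, none was detected, while on chromosomes 5 and 9 both of 2 were. Over all chromosomes the share detected was 52.1% of Gpr-named genes and 58.6% of protein-coding rows. The share of other genes detected on each chromosome was not computed, so these small counts only describe where the genes lie.

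RefSeq promoters of 300 bases were matched for 52 of the 73 Gpr-named genes, and for a gene with several the one with the highest observed to expected ratio of CpG was used. A promoter was called CpG-rich where that ratio was 0.6 or more and the GC content 50% or more. Of 27 detected Gpr-named genes 15 (55.6%) had a CpG-rich promoter, and of 25 genes under the floor 3 did. Among protein-coding genes the shares were 74.2% of 9722 detected and 14.9% of 6842 under the floor. The lower share among detected Gpr-named genes than among detected protein-coding genes was not tested. Without the Golgi, endosome and lysosome proteins, of which 5 of 7 were CpG-rich, it was 10 of 20. The median CpG number was 18 in detected Gpr-named genes and 4 in those under the floor.

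Several abundant Gpr-named genes had promoters that were not CpG-rich by these limits. Of 9 genes at 10 FPKM or more with a matched promoter 4 were CpG-rich, Gpr137, Gpr158, Gpr37 and Gpr107. Gpr37l1 is described above, and Gpr22, at 16.9 FPKM, had 2 CpG in 300 bases and a ratio of 0.144. Gpr85, at 10.1 FPKM, had 5 CpG and a ratio of 0.609, above the limit, and missed only the GC limit, at 33.3%. Gpr12 also missed only the GC limit, at 48.3%, and Gpr155 missed only the ratio limit, at 0.588. In the other direction, Gpr160, Gpr157 and Gpr101 were under the floor with CpG-rich promoters, at ratios of 0.857, 0.691 and 0.612. None of 14 genes under 0.1 FPKM had one. Methylation at these promoters was not analysed here.

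**Figure D4:**
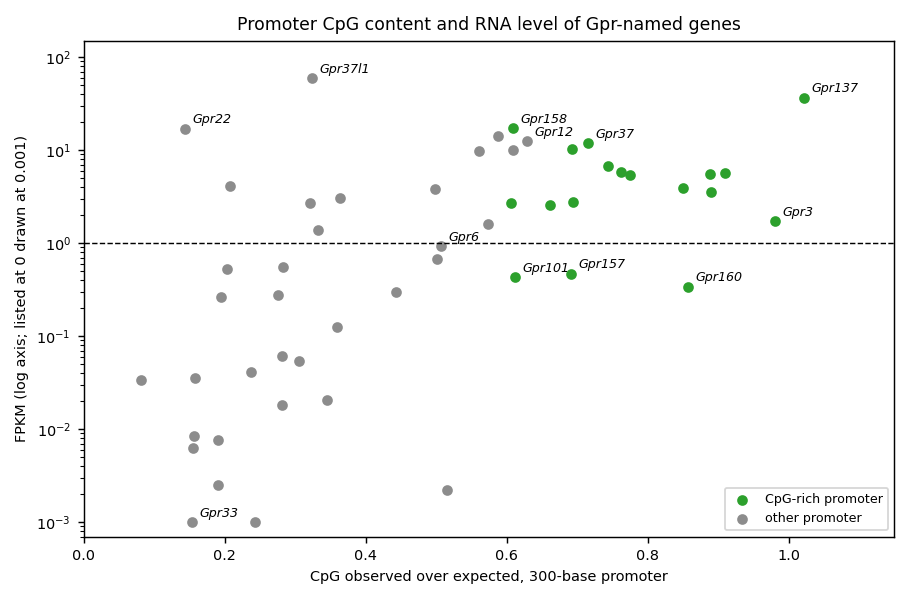
RNA level in FPKM, on a log axis, against the observed to expected CpG ratio of the promoter for the 52 Gpr-named genes with a RefSeq promoter, with CpG-rich promoters in green. Gpr33 lies at the lower left, with few CpG, and is drawn at the lower edge because it is listed at 0, while Gpr37l1 and Gpr22 lie high at low ratios, and 15 of the 18 green points lie above the dashed line at 1 FPKM.

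Short motifs were searched in all 67 promoters of Gpr-named genes. The GC box GGGCGG was in 38.8% of 67 promoters of Gpr-named genes and 35.7% of all 32851, and the CCAAT box, as CCAAT, in 43.3% and 37.4%. The TATA box, as TATAAA, was in 6 of the 67 (8.96%), against 13.6% of all promoters, among them those of Gpr22, Gpr83 and Gpr89. The E-box CACGTG was in 2 of 67 (2.99%), against 7.15%, and the core AACAAT, which Sox factors bind, in 5 of 67 (7.46%), against 10.7%. Both strands were searched, and no motif of these contains another.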

How the data were processed

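Per the labels' protocols, mPFC RNA was isolated with a phenol reagent and DNase, and libraries were prepared with the TruSeq RNA v2 kit. The submitters' processing notes name CASAVA 1.8.2, TopHat, Cufflinks and build mm10. The annotation release, the strand setting, how replicates were combined and which versions of TopHat and Cufflinks ran are not stated there. The design text states 3 RNA replicates. The authors deposited FPKM for 46073 Ensembl identifiers in 2 columns, which hold the same value in 46073 rows and were counted as 1 sample. There is therefore no test, no error and no leaving out of libraries. Mitochondrial genes hold 50.0% of summed FPKM; this lowers the FPKM of all other genes alike and leaves the ratios between them as they are.

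Depth is not given by the table, fragment counts were not recovered, and no counting interval is given. Zeros may be failed estimates and are described only as zeros in the table.

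A symbol was found for 45139 rows. Gene class, position, overlaps and promoters came from RefSeq for GRCm38.p6, matched by symbol. The members, role groups, paralog sets, partners and marker lists were chosen with earlier results of these data known. The rule for named genes takes every member at 1 FPKM or more, members of paralog sets, those nearest the floor, and those with microglia, vascular, striatal or habenula roles. Other members were added after their values were seen, and counts and medians cover all 73. Some genes that the rule takes are left out of the text and of the plots by gene. The promoter limits, the family lists and the overlap summary were also set after the file was seen. Counts and CpG functions were tested on simulated data. Computation used pandas 2.3.3 and numpy 2.4.6 under Python 3.11.15, with matplotlib 3.10.9 for figures.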

Additional observations from a re-analysis of the deposited data

How the results depend on the processing

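The count of detected Gpr-named genes, 38, was 42 at a floor of 0.5 FPKM and 33 at 2 FPKM. After rescaling so that nuclear genes sum to 1000000 it was 46, and all these counts were within 1.5 times. The count was 54 with genes of an older Gpr symbol added and 30 without the Golgi, endosome and lysosome proteins. Both lie within 1.5 times too, but adding genes can only raise a count and removing detected genes must lower it. These counts therefore do not check the main one. Of the 64 genes added 16 were detected, a lower share than 38 of 73. Without the genes that overlap a protein-coding gene, an alternative chosen after seeing the data, the count was 23, since 23 genes leave the list. The median of 1.37 FPKM became 5.00 FPKM over detected genes alone, by construction, and the geometric mean of FPKM + 1, less 1, was 2.02 FPKM. At a floor of 0.5 FPKM the microglia and leukocyte group had 3 detected genes in place of 1 and the vascular group 1 in place of 0, and at 2 FPKM the group of other tissues had 1 in place of 2. The highest member was at least 2-fold above the lowest in 10 of 12 paralog sets, and in 10, 9 and 8 sets with pseudocounts of 0.1, 0.5 and 1. Over 23 paralog pairs and these 3 pseudocounts no order reversed, but 27 of 69 ratios moved by over 1.5 times, each in a pair with a member under the floor. The ratio of Gpr158 to Gpr179, 516 in FPKM, was 130 with a pseudocount of 0.1 and 33.2 with 0.5, that of Gpr34 to Gpr174, 145 in FPKM, was 38.5 and 10.5, and that of Gpr12 to Gpr6, 13.5 in FPKM, was 7.02 with a pseudocount of 1. The planned pair of Gpr26 and Gpr78 was not run, since Gpr78 had no matched row. With the promoter of lowest observed to expected CpG ratio for each gene, 13 detected genes were CpG-rich in place of 15, and 3 under the floor in both cases. No paired analysis was possible because the table holds 1 RNA sample. Leaving out libraries was not run for the same reason.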

Other observations

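Another 64 genes in the table carry an older symbol of the Gpr form in RefSeq and a different symbol now. Of these 16 were at 1 FPKM or more, against 38 of the 73 genes that keep a Gpr symbol. The median was 0.246 FPKM, against 1.37 FPKM. The highest was Lancl1, a glutathione-binding protein and not a receptor, at 79.1 FPKM, followed by Gabbr2, a subunit of the GABA-B receptor, at 48.4 FPKM. Tpra1 was at 22.5 FPKM. The adhesion receptor genes Adgra1 and Adgrg1 were at 14.9 and 13.4 FPKM, the metabotropic glutamate receptor gene Grm7 at 14.7 FPKM, and Wls, which carries Wnt proteins to the cell surface, at 13.3 FPKM. Some of these genes are also among the adhesion and neuropeptide receptors of the family comparison. The purinergic receptor gene P2ry13, known from microglia, was at 4.09 FPKM, beside Gpr34 at 5.10 FPKM.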
